A study of Mus musculus with 2 samples.

Results

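Interferon response genes are the transcripts that cells make when interferons bind their receptors, and 44 of them were followed here in primary mouse hepatocytes treated with a liver X receptor agonist. They were listed by symbol, and all 44 symbols matched exactly 1 gene each among the 36808 genes of the deposited table. By role they comprise 6 RNA sensors and sensing factors, 4 transcription factors, 29 antiviral effectors and 5 GTPases of the interferon-gamma type. The study compared 2 groups of hepatocytes isolated from C57Bl6 mice. One group was given GW3965, an agonist of liver X receptors (LXR), at 1 µM, and the other its solvent DMSO. Both were kept in William E medium with serum, insulin and dexamethasone, a glucocorticoid. Each group had 1 RNA sequencing library, so no difference below has a replicate check, and no p-value of its own was computed. In the table the library set against DMSO bears the name GL. It was taken to be the GW3965 culture, the only other sample described, and this assignment is not certain.

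Type I interferons signal through the receptor chains IFNAR1 and IFNAR2 and the kinases JAK1 and TYK2 to a complex of transcription factors that holds STAT2 and IRF9. That complex binds interferon-stimulated response elements in DNA and turns on antiviral genes, several of which, such as Irf7 and the RNA sensors, feed back on the pathway. Interferon gamma uses its own receptor, JAK1 and JAK2, acts through gamma-activated sites in DNA, and induces GTPases that attack the vacuoles of intracellular pathogens. Hepatocytes carry both kinds of receptor, and LXRs, nuclear receptors for oxysterols, are also known to restrain some inflammatory genes in macrophages.

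The DNA next to the start of these genes is shown first, because the response element is what many of them share. RefSeq promoter windows (GRCm38.p6, 250 bases before to 50 after the start) were at hand for 33 of the 44 genes. The next 6 lines give the last 160 bases before the start, on the strand of the gene, with every match on either strand to GAAA, any 2 bases, GAAA in capitals. These letters, the core of the interferon-stimulated response element, are called the response element core below. On the opposite strand they read TTTC, any 2 bases, TTTC, and neighbouring matches can overlap and merge into one run of capitals. Isg15, Ifit1, Ifit3 and Oas1a were chosen as effectors, Irgm1 as a GTPase, and Oasl1 because its ratio ran against all others.
Isg15, chr4:156200819-156200978, minus strand: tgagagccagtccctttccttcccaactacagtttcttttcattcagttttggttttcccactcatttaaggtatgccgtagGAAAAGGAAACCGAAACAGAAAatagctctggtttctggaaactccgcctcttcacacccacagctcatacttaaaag
Ifit1, chr19:34640729-34640888, plus strand: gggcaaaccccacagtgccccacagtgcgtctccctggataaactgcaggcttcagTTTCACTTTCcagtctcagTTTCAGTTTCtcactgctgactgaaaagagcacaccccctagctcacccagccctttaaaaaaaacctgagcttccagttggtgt
Ifit3, chr19:34583369-34583528, plus strand: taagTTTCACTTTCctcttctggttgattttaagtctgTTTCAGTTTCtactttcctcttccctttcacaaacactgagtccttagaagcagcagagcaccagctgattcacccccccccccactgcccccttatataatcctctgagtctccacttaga
Oas1a, chr5:120907526-120907685, minus strand: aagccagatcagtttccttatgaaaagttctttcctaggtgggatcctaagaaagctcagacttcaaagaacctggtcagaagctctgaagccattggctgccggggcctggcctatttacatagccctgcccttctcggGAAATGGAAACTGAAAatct
Irgm1, chr11:48871421-48871580, minus strand: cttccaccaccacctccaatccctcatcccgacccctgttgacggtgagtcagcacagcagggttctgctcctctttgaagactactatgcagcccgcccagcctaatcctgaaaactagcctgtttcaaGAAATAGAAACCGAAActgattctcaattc
Oasl1, chr5:114923080-114923239, plus strand: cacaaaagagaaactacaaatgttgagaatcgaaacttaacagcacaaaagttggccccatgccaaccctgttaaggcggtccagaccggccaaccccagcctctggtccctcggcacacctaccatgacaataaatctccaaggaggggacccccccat

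In the Isg15 window, 3 overlapping copies of the response element core began 78, 72 and 66 bases before the start. Ifit1 and Ifit3 each held 2 separate copies on the strand opposite to the gene, and Oas1a and Irgm1 each held 2 overlapping copies close to the start. The Oasl1 window held none. Of the 33 genes with a window, 16 had at least 1 response element core, against 3.99% of 27025 genes with RefSeq promoters. A longer form, the core followed by C, was present in 13 of the 33 genes and in 0.944% of all genes. The core of the gamma-activated site, TTCNNNGAA, which reads the same on both strands, was present in 10 of the 33 and in 9.55% of all genes. A match describes the letters of the window and does not show binding.

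Levels are given as FPKM, fragment numbers scaled by transcript length and library size, as the authors deposited them. Differences are given as log2 ratios of (FPKM + 1) in GW3965 to (FPKM + 1) in DMSO, a scale that understates the difference of low genes. A gene was counted where 1 library or both reached an FPKM of 1, and a difference of at least 1.5-fold on that scale was used as a size threshold. The scale of the libraries was estimated at about 74100000 fragments for GW3965 and 58900000 fragments for DMSO. For this, the most frequent low value of FPKM times annotated transcript length was taken as 1 fragment. As a check of the labels, all 6 LXR targets examined were at least 1.5-fold higher in the GW3965 library, with the sterol transporter Abca1 at 81.1 FPKM in GW3965 and 14.6 FPKM in DMSO. Hepatocyte transcripts were present, with Apoa1 at 660 FPKM in GW3965 and 598 FPKM in DMSO, while the urea cycle enzyme Cps1 (2.1 FPKM in GW3965 and 1.5 FPKM in DMSO) and the tyrosine aminotransferase Tat (0.447 FPKM in GW3965 and 0.962 FPKM in DMSO) were low in both libraries. Albumin and transferrin carried the table's mark for too many fragments and were not used.

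The 42 genes that reached an FPKM of 1 were lower with GW3965 by small amounts, with Oasl1 as the exception. Of these, 41 had a ratio below 0, against 47.1% of all 11796 genes at that level. Their median log2 ratio was -0.36, while that of all genes was 0.01. At least 1.5-fold lower were 4 of the 42 genes, namely Ifit3, Iigp1, Isg15 and Ifi44, where the share over all genes was 1.33%. None of the 42 was at least 1.5-fold higher, where the share over all genes was 1.02%. At a smaller size of 1.25-fold, chosen after the values were seen, 23 of the 42 genes were lower and 0 higher, against 5.32% and 3.93% of all genes.

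**Figure D1:**
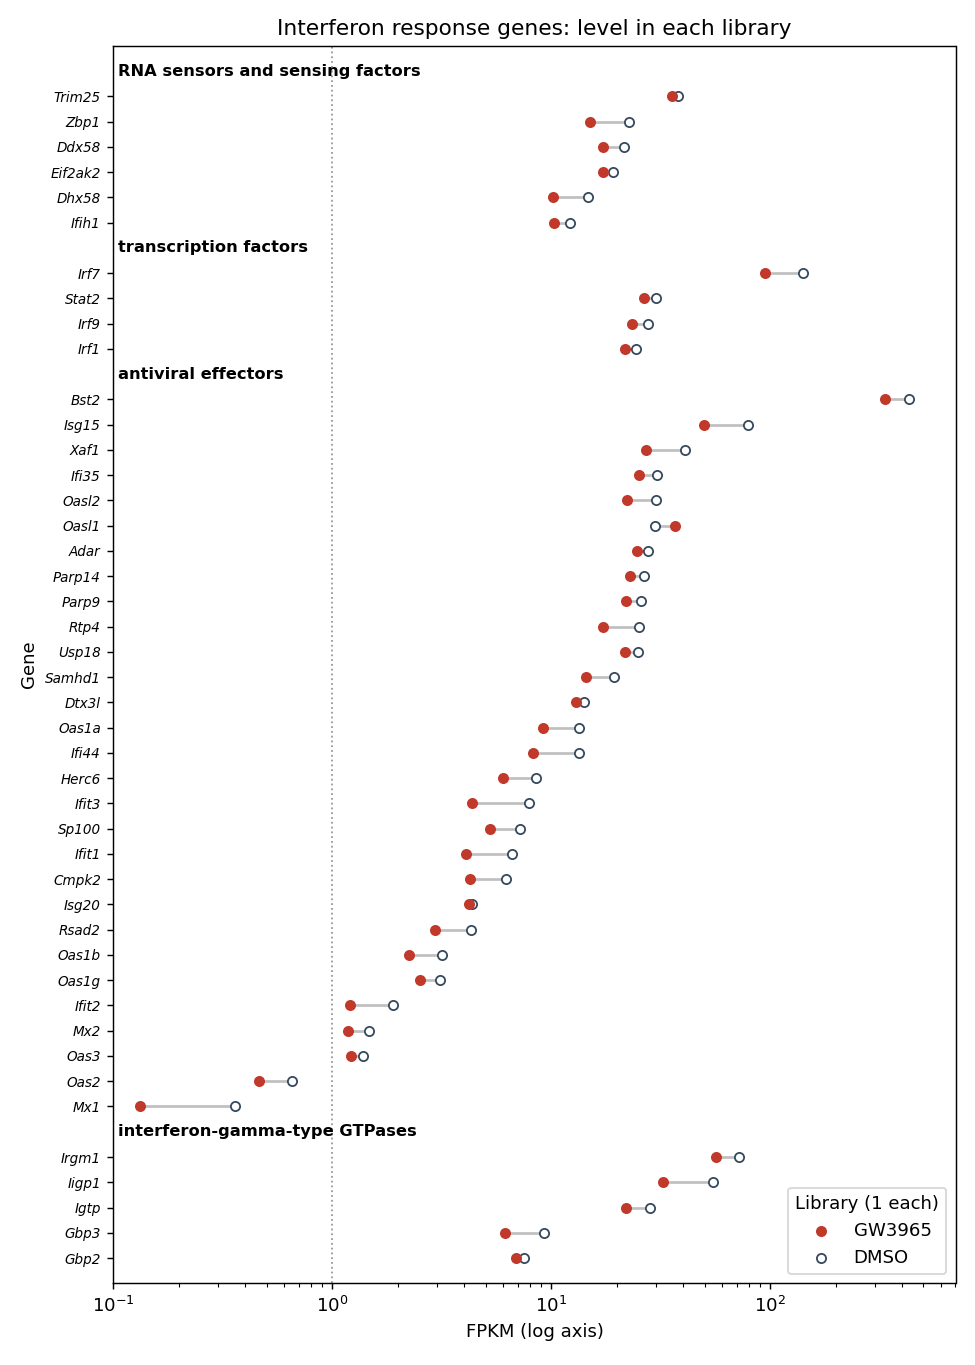
FPKM of the 44 interferon response genes (log axis) in the GW3965 library (filled) and the DMSO library (open), 1 library each, grouped by role; the dotted line marks an FPKM of 1. The filled point lies left of the open one for every gene except Oasl1, and the distance is small beside the range of levels, which runs from Mx1 at 0.132 FPKM in GW3965 to Bst2 at 429 FPKM in DMSO.

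The lower values were not limited to weakly expressed genes. Of the 19 genes with a mean of at least 20 FPKM over both libraries, 18 had a ratio below 0 and the median was -0.27, whereas 40% of all 3961 genes at that level were below 0. All 16 genes between 5 and 20 FPKM were below 0, with a median of -0.44, and 46.1% of all genes in that range were. All 7 genes under 5 FPKM were below 0 as well, with a median of -0.23, and 57% of all genes in that range were. These bounds were chosen after the values were seen.

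The sensors, which detect foreign or displaced nucleic acids, were all lower in the GW3965 library, with a median ratio of -0.26 over 6 genes. Zbp1, which binds Z-form nucleic acids and can trigger necroptosis, had 15 FPKM in GW3965 and 22.5 FPKM in DMSO, a ratio of -0.56. Dhx58, which encodes the RIG-I relative LGP2, had 10.2 FPKM in GW3965 and 14.7 FPKM in DMSO (-0.50). These were the 2 sensors past 1.25-fold. Ddx58, which encodes RIG-I itself, stood at 17.2 FPKM in GW3965 and 21.5 FPKM in DMSO (-0.31), and Ifih1, which encodes the long double-stranded RNA sensor MDA5, at 10.3 FPKM in GW3965 and 12.1 FPKM in DMSO (-0.21). The RNA-activated kinase gene Eif2ak2 had 17.2 FPKM in GW3965 and 19.2 FPKM in DMSO (-0.15). Trim25, a ubiquitin ligase that acts on the RIG-I pathway, had 35.6 FPKM in GW3965 and 38.0 FPKM in DMSO, and at -0.09 it was the sensing factor nearest to 0.

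Among the transcription factors, Irf7 differed most. Irf7, which amplifies the production of type I interferon, had 94.9 FPKM in GW3965 and 141 FPKM in DMSO, a ratio of -0.56. Irf9, the DNA-binding part of the STAT complex, had 23.3 FPKM in GW3965 and 27.5 FPKM in DMSO (-0.23), and its partner Stat2 had 26.6 FPKM in GW3965 and 30.1 FPKM in DMSO (-0.17). Irf1, an early factor of the interferon gamma response, had 21.6 FPKM in GW3965 and 24.3 FPKM in DMSO (-0.16). The median of the 4, Irf7 included, was -0.20. Irf9, Stat2 and Irf1 each had a ratio nearer to 0 than Irf7.

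The antiviral effectors had a median ratio of -0.39 over the 27 genes that reached an FPKM of 1, with 26 below 0 and 3 at least 1.5-fold lower. The proteins of the Ifit genes bind foreign RNA ends and stop its translation, and Ifit3 and Ifit1 had ratios well below the effector median. Ifit3 had 4.36 FPKM in GW3965 and 7.92 FPKM in DMSO (-0.74). Ifit1 had 4.09 FPKM in GW3965 and 6.62 FPKM in DMSO, and at -0.58 it fell just short of the 1.5-fold threshold. Ifit2 was lower in level, with 1.20 FPKM in GW3965 and 1.89 FPKM in DMSO, and its ratio of -0.39 equalled that median. The added 1 weighs more on such low levels. Without it, the GW3965 level was 63.6% of that in DMSO for Ifit2 and 61.8% for Ifit1. The 3 genes lie in a cluster on chromosome 19, with Ifit3 at chr19:34658021-34663221 (mm9, the build of all positions taken from the table). Ifit3 is uncertain as a single gene, because 66.1% of the 25-base words of its GENCODE transcript also occur in Ifit3b, listed in the table as I830012O16Rik with 1.28 FPKM in GW3965 and 1.78 FPKM in DMSO.

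Isg15, a ubiquitin-like modifier, and the enzymes around it differed unequally. Isg15 had 49.8 FPKM in GW3965 and 78.8 FPKM in DMSO (-0.65) at chr4:155573533-155574927, whereas Usp18, the protease that removes the modifier and damps receptor signalling, had 21.7 FPKM in GW3965 and 24.9 FPKM in DMSO (-0.19). Herc6, the ligase that attaches it in mice, had 6.04 FPKM in GW3965 and 8.46 FPKM in DMSO (-0.43). From the wider list, Uba7, its activating enzyme, had 5.83 FPKM in GW3965 and 8.59 FPKM in DMSO (-0.49), and Ube2l6, its conjugating enzyme, had 52.5 FPKM in GW3965 and 65.9 FPKM in DMSO (-0.32); both were picked after their values were seen. These 5 genes, a chosen set, were all lower in the GW3965 library, with ratios between -0.65 and -0.19.

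The oligoadenylate synthetases, which make the messenger that activates RNase L, were low to moderate in level. Oas1a had 9.17 FPKM in GW3965 and 13.3 FPKM in DMSO (-0.49), Oas1b 2.23 FPKM in GW3965 and 3.18 FPKM in DMSO (-0.37), and Oas1g 2.50 FPKM in GW3965 and 3.11 FPKM in DMSO (-0.23). Oas1a and Oas1g cannot be cleanly separated, since 72.4% of the 25-base words of Oas1a occur in Oas1g. Laboratory strains such as C57BL/6 carry a truncated Oas1b, so its transcript does not stand for a full enzyme. Oas3 was near the minimum at 1.21 FPKM in GW3965 and 1.38 FPKM in DMSO (-0.10). Oas2 stayed below it, at 0.462 FPKM in GW3965 and 0.652 FPKM in DMSO.

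The paralogues Oasl1 and Oasl2, neighbours on chromosome 5, went opposite ways. Oasl1, a negative regulator of Irf7 translation in mice, had 36.5 FPKM in GW3965 and 29.7 FPKM in DMSO, a ratio of 0.29, at chr5:115367327-115387924. Oasl2, an active synthetase with ubiquitin-like domains, had 22.2 FPKM in GW3965 and 30.1 FPKM in DMSO (-0.42). Oasl1 was therefore the more abundant of the pair in the GW3965 library, while both were at about the same level in the DMSO library. Only 1.35% of the 25-base words of Oasl1 occurred in any other gene, and 2.48% of those of Oasl2. From fragment numbers estimated with the shortest coding transcript, about 5745 in GW3965 and 3712 in DMSO, the FPKM ratio of Oasl1 was 1.23, with an exact 95% binomial interval of 1.18 to 1.28. Such intervals cover counting error only and leave out any difference between cultures. In the authors' deposited table Oasl1 had a log2 fold of 0.30 with p = 0.217. The standard error derived from that test was 0.24, so the direction of Oasl1 is not established.

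The Mx GTPase genes were low in level, and Mx1 was close to silent. Mx1 had 0.132 FPKM in GW3965 and 0.358 FPKM in DMSO, which at the shortest coding transcript would be about 5 fragments in GW3965 and 10 in DMSO. Its FPKM ratio of 0.368 had a counting interval of 0.107 to 1.28, so no difference was detectable at this depth with that transcript length. With the longest coding transcript the numbers would be about 33 fragments in GW3965 and 71 in DMSO and the interval 0.237 to 0.565. C57BL/6 mice carry an internally deleted Mx1, and the gene therefore does not report a working protein. Mx2 had 1.18 FPKM in GW3965 and 1.47 FPKM in DMSO (-0.18).

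Bst2, which encodes the virion tether tetherin, was by far the most abundant of the 44 genes in both libraries. It had 335 FPKM in GW3965 and 429 FPKM in DMSO, a ratio of -0.36 that equals the median of the group. Rsad2, which encodes viperin, had 2.94 FPKM in GW3965 and 4.30 FPKM in DMSO (-0.43). Its neighbour on chromosome 12, the nucleotide kinase gene Cmpk2, had 4.23 FPKM in GW3965 and 6.19 FPKM in DMSO (-0.46). The pair thus differed by nearly the same amount.

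Of the other effectors, 3 had ratios below -0.5. Ifi44 had 8.22 FPKM in GW3965 and 13.3 FPKM in DMSO (-0.63). Xaf1, a pro-apoptotic factor, had 27.1 FPKM in GW3965 and 40.6 FPKM in DMSO (-0.57), and Rtp4, an inhibitor of flavivirus replication, had 17.2 FPKM in GW3965 and 25.2 FPKM in DMSO (-0.53). Samhd1, which depletes deoxynucleotides, had 14.4 FPKM in GW3965 and 19.3 FPKM in DMSO (-0.40), and the nuclear body gene Sp100 had 5.23 FPKM in GW3965 and 7.18 FPKM in DMSO (-0.39). The remaining effectors lay closer to 0. Ifi35 had 25 FPKM in GW3965 and 30.4 FPKM in DMSO (-0.27). The ADP-ribosylation gene Parp14 had 22.9 FPKM in GW3965 and 26.5 FPKM in DMSO (-0.20), and Adar, the double-stranded RNA editing enzyme, had 24.6 FPKM in GW3965 and 27.7 FPKM in DMSO (-0.16). The exonuclease gene Isg20 had 4.21 FPKM in GW3965 and 4.35 FPKM in DMSO (-0.04).

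The GTPases of the interferon-gamma type had a median ratio of -0.36, with all 5 below 0 and 4 past 1.25-fold. Iigp1, an immunity-related GTPase that is loaded onto pathogen vacuoles, had 32.4 FPKM in GW3965 and 54.9 FPKM in DMSO, a ratio of -0.74, at chr18:60535683-60552281. The regulatory GTPase genes Irgm1 and Igtp stood at 56.4 FPKM in GW3965 against 72.1 FPKM in DMSO (-0.35) and at 21.8 FPKM in GW3965 against 28.2 FPKM in DMSO (-0.36). The guanylate-binding genes were uneven. Gbp3 had 6.11 FPKM in GW3965 and 9.26 FPKM in DMSO (-0.53), whereas Gbp2 had 6.92 FPKM in GW3965 and 7.47 FPKM in DMSO (-0.10). Igtp shares 17.6% of its 25-base words with Irgm2, a gene with the same ratio.

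Genes that are reported to respond to interferon but are not among the 44 were mostly lower too. Of 64 such genes 62 were found and 52 reached an FPKM of 1. Of the 52, 47 were below 0, against 47.1% of all genes, and the median was -0.20. At least 1.5-fold lower were 2, and 0 were at least 1.5-fold higher, against 1.33% and 1.02% of all genes. Ifitm3, a membrane protein that blocks virus entry, had 780 FPKM in GW3965 and 1046 FPKM in DMSO (-0.42). Its neighbour Ifitm2 had 216 FPKM in GW3965 and 237 FPKM in DMSO (-0.13), the scramblase gene Plscr1 had 272 FPKM in GW3965 and 314 FPKM in DMSO (-0.21), and Ly6e had 488 FPKM in GW3965 and 509 FPKM in DMSO (-0.06). The 2 genes past 1.5-fold were the GTPase genes Tgtp1, at 4.09 FPKM in GW3965 and 7.71 FPKM in DMSO (-0.78), and Tgtp2, at 0.384 FPKM in GW3965 and 1.65 FPKM in DMSO (-0.94). They are closely similar copies, so reads may be split between them.

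Pathway genes above the induced genes that are not among the 44 were, as a set, close to equal in both libraries. The sensors and transcription factors described above also act in that pathway, but they were counted among the 44. All of them had ratios below 0, for example -0.31 for Ddx58 and -0.17 for Stat2. Of 51 genes for ligands, receptors, kinases, STATs, negative regulators and sensing adaptors, 29 reached an FPKM of 1. Their median ratio was 0.03, with 13 below 0, 16 above 0 and none past 1.5-fold in either direction. The share below 0 over all genes was 47.1%. Of the 17 ligand genes, 13 were listed at 0 in both libraries, Ifng among them, and none reached an FPKM of 1. Ifnb1 was listed at 0 FPKM in GW3965 and at 0.0515 FPKM in DMSO. A transcript present at these levels in the cells would be few fragments in either library, so no difference of the ligands was detectable at this depth.

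The type I receptor genes were Ifnar1, with 28.4 FPKM in GW3965 and 25.4 FPKM in DMSO (0.16), and Ifnar2, with 66.3 FPKM in GW3965 and 67.0 FPKM in DMSO (-0.01). Of the interferon gamma receptor chains, Ifngr1 had 53.7 FPKM in GW3965 and 67.2 FPKM in DMSO (-0.32), and Ifngr2 had 42.2 FPKM in GW3965 and 39.7 FPKM in DMSO (0.08). The kinase gene Jak1 had 68.6 FPKM in GW3965 and 66.7 FPKM in DMSO (0.04), and Jak2 had 13.1 FPKM in GW3965 and 13.1 FPKM in DMSO. Stat3, which serves other cytokines, had 60.6 FPKM in GW3965 and 55.8 FPKM in DMSO (0.12).

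Negative regulators had a median of 0.01. Ptpn11, a tyrosine phosphatase, had 58.9 FPKM in GW3965 and 56.8 FPKM in DMSO (0.05), and Socs3, an inhibitor of cytokine receptors, had 13.3 FPKM in GW3965 and 14.0 FPKM in DMSO (-0.07). Irf2, which competes with Irf1 for its sites, stood at 22.6 FPKM in GW3965 and 20.5 FPKM in DMSO (0.13), and the phosphatase gene Ptpn2 at 14.7 FPKM in GW3965 and 15 FPKM in DMSO (-0.03). Adaptors and kinases of nucleic acid sensing had a median of 0.03 over 13 genes. The kinase gene Ikbke had 81.5 FPKM in GW3965 and 86.5 FPKM in DMSO (-0.09), Irf3, which starts interferon transcription, had 35.1 FPKM in GW3965 and 38.0 FPKM in DMSO (-0.11), and Myd88 had 26.5 FPKM in GW3965 and 26.8 FPKM in DMSO (-0.02). Irf5 stood at 18.9 FPKM in GW3965 and 18.7 FPKM in DMSO (0.01). Irf8, a factor of myeloid cells named after its value was seen, had the highest ratio of the pathway, with 7.71 FPKM in GW3965 and 5.47 FPKM in DMSO (0.43). The authors' deposited test of Irf8 gave p = 0.997.

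**Figure D2:**
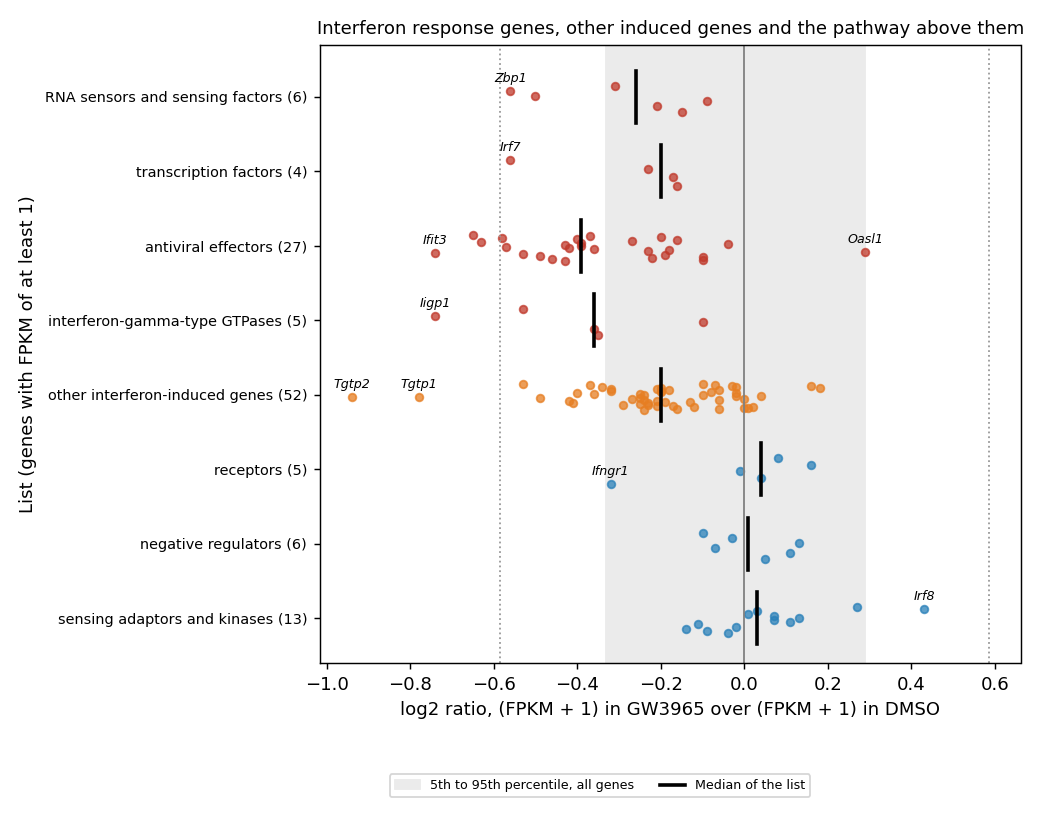
Log2 ratios of (FPKM + 1) in GW3965 to (FPKM + 1) in DMSO for genes that reach an FPKM of 1, 1 point per gene; black bars are list medians, the grey band runs from the 5th to the 95th percentile of all genes (-0.33 to 0.29), and dotted lines mark 1.5-fold. Interferon response genes in 4 roles (red) and other induced genes (orange) lie mostly left of 0, while receptors, negative regulators and sensing adaptors (blue) mostly lie around it, with Ifngr1 at -0.32 and Irf8 at 0.43; kinases and STATs of the receptors are not drawn.

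Some interferon response genes share a locus of the table with other genes, several of which had ratios nearer to 0. Phrf1, in the same locus as Irf7, had 22.2 FPKM in GW3965 and 22.8 FPKM in DMSO (-0.04). Rnf31, in the locus of Irf9, had 15 FPKM in GW3965 and 14.9 FPKM in DMSO (0.01). The locus of Dhx58 also held Dnajc7, with 67.3 FPKM in GW3965 and 71.9 FPKM in DMSO (-0.09), and Nkiras2, with 13.7 FPKM in GW3965 and 13.1 FPKM in DMSO (0.06). The pair Parp9 and Dtx3l share 1 locus, where the ADP-ribosylation gene Parp9 had 21.8 FPKM in GW3965 and 25.6 FPKM in DMSO (-0.22) and its ligase partner Dtx3l had 13 FPKM in GW3965 and 14.1 FPKM in DMSO (-0.10). Gm11626, in the locus of Ifi35, had 2.01 FPKM in GW3965 and 3.22 FPKM in DMSO (-0.49), but 13.6% of the 25-base words of Ifi35 occur in it, so the 2 are not separable where they overlap.

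Median ratios of the 33 genes were close with and without a motif in the window. The 16 genes with the response element core in the window had a median ratio of -0.35 and the 17 without it -0.39. For TTCNNNGAA the medians were -0.32 over 10 genes with it and -0.39 over 23 without. Among genes outside all the interferon lists, the 274 with the response element core had a median of -0.02, with 52.6% below 0, and the 7747 without it a median of 0.02, with 45.8% below 0.

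The authors' deposited table tested all 44 genes and called none of them, where it called 0.285% of the 15090 genes it tested. Iigp1 came nearest in the authors' deposited table, with p = 0.000182 and q = 0.0574. In the authors' deposited table Isg15 had q = 0.144, Ifit3 q = 0.168, Ifit1 q = 0.442, Rtp4 q = 0.595 and Cmpk2 q = 0.951, and the other 38 genes had q above 0.99. An unadjusted p under 0.05 was given in the authors' deposited table to 11 of the 44 genes, all of them lower in GW3965, against 1.86% of all genes tested that were lower at that level. That test compares 2 libraries and not the conditions, and genes of 1 pathway vary together, so these counts are not independent pieces of evidence.

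The error behind a single gene depends on how it is counted. The standard error of the log2 fold, derived from the authors' deposited table as the fold over the test score, had a median of 0.27 over the 44 genes. It ran from 0.19 to 1.31, the highest being that of Dhx58, which shares its locus with 5 other genes. Counting alone was tighter for the better expressed genes. For Isg15, about 2793 fragments in GW3965 and 3506 in DMSO gave an FPKM ratio of 0.633 with an exact 95% binomial interval of 0.602 to 0.665. For Ifit3, about 564 fragments in GW3965 and 814 in DMSO gave 0.55 with an interval of 0.493 to 0.614. For Oas2, the shortest coding transcript gave about 28 fragments in GW3965 and 32 in DMSO and a ratio of 0.71 with an interval of 0.403 to 1.19. With the longest coding transcript the numbers would be about 136 fragments in GW3965 and 152 in DMSO, and the interval of 0.56 to 0.902 no longer includes 1.

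Hepatocyte preparations hold other liver cells, some of which express interferon response genes strongly, and in bulk RNA fewer cells of a type and less RNA per cell cannot be told apart. Of 22 Kupffer cell and macrophage markers, 17 reached an FPKM of 1. Of these, 11 had a ratio below 0 and 6 above 0, and their median was -0.13. Over all genes 47.1% were below 0. The summed level of all 22 markers was 312 FPKM in GW3965 and 319 FPKM in DMSO, and none was listed at 0 in both libraries. Cd14 (99.3 FPKM in GW3965 and 111 FPKM in DMSO, -0.16) and Cd68 were the largest parts of that sum and went opposite ways. The Kupffer cell lectin gene Clec4f had 3.11 FPKM in GW3965 and 2.99 FPKM in DMSO (0.04), and Cd68 had 93.9 FPKM in GW3965 and 74.9 FPKM in DMSO (0.32). The complement gene C1qa had 9.37 FPKM in GW3965 and 12.3 FPKM in DMSO (-0.35). Ratios of C1qc, Lyz2 and Mpeg1 were -0.32, -0.31 and -0.24. Those of Cd5l, Laptm5, Ctss and Cybb, the other markers above 0, were 0.32, 0.21, 0.05 and 0.02. The part of macrophages in the lower interferon response genes was not tested.

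Markers of other immune cells were near 0. The summed level of 10 T and NK cell markers was 0.836 FPKM in GW3965 and 0.944 FPKM in DMSO, that of 4 B cell markers 0.531 FPKM in GW3965 and 0.42 FPKM in DMSO, and that of 6 neutrophil markers 0.207 FPKM in GW3965 and 0.198 FPKM in DMSO. Of 5 plasmacytoid dendritic cell markers only Tcf4, which other cells also express, reached an FPKM of 1, and Siglech stood at 0.0398 FPKM in GW3965 and 0.0172 FPKM in DMSO. Endothelial markers had a median ratio of 0.11 over 9 genes, stellate cell and fibroblast markers 0.15 over 9 genes, cholangiocyte markers 0.17 over 2 genes and hepatocyte markers 0.07 over 11 genes. In the hepatocyte list, 2 of the 11 genes were at least 1.25-fold lower, against 5.32% of all genes and 23 of the 42 interferon response genes. The ratios of these 2 lay within the range of the interferon response genes. Serpina1a, a secreted protease inhibitor, had 99.9 FPKM in GW3965 and 138 FPKM in DMSO (-0.46), and Hnf4a, a hepatocyte transcription factor, had 37.4 FPKM in GW3965 and 49.4 FPKM in DMSO (-0.39). The endothelial lectin gene Clec4g stood apart in its list with 0.996 FPKM in GW3965 and 2.14 FPKM in DMSO (-0.66).

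**Figure D3:**
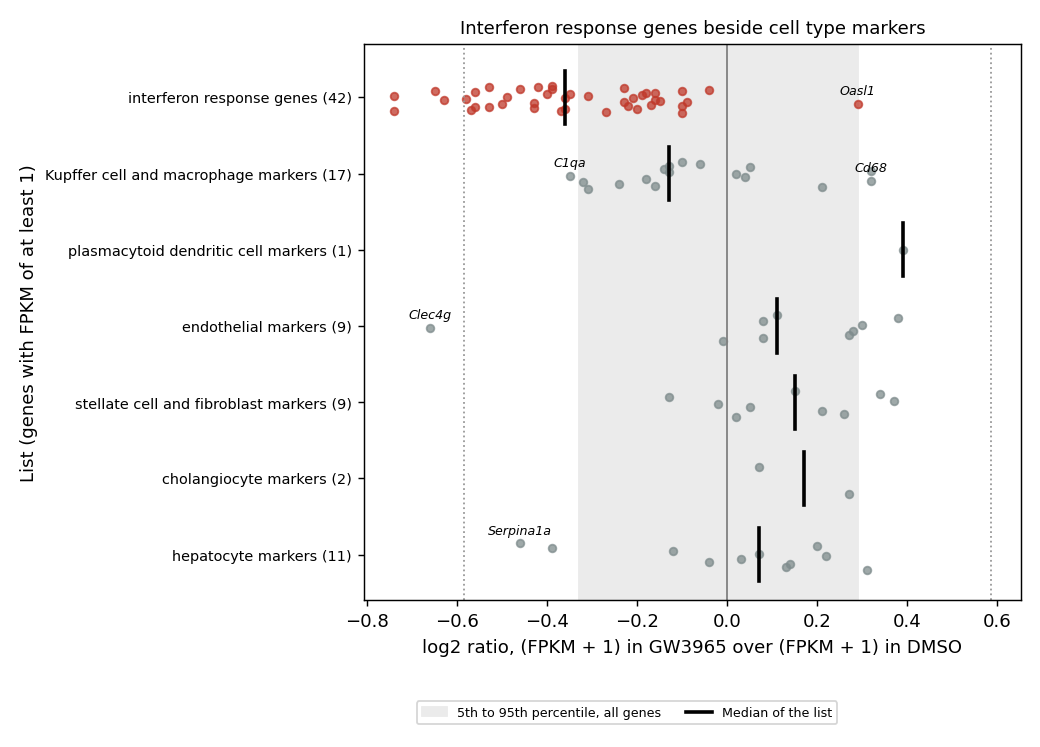
Log2 ratios of (FPKM + 1) in GW3965 to (FPKM + 1) in DMSO for the interferon response genes (red) and for cell type markers (grey) that reach an FPKM of 1, drawn as in the plot of ratios by role. The median of the interferon response genes (-0.36) lies below that of the macrophage markers (-0.13), and the medians of the other marker lists lie above 0; lists without a gene at that level are not drawn.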

How the data were processed

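RNA was sequenced from 1 GW3965 and 1 DMSO culture with TruSeq libraries, per the labels' protocols. The tools listed per the submitters' processing notes are TopHat2 2.0.6, Cuffdiff, Cufflinks 2.0.2 and CASAVA, with the builds NCBIM37 and mm9; no source used here gives their settings, strand handling or scaling. Per the file headers the deposited values are FPKM, and the authors also gave a log2 fold, a test score, a p-value, a q-value and a call per gene. The sign of the authors' score is opposite to that of the fold. The second, signed fold column, read as a score from the deposited values, was not used for results.

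Ratios used a pseudocount of 1, and 7 genes marked for too many fragments were left out. With 1 library per group no test was run. The genes and lists were chosen with earlier results of these data known; every member is named, and of the other pathway genes those past 1.5-fold and up to 4 of the highest mean level per role. Exceptions are marked where they occur, and 1 gene that the rule names is not reported here. Symbols are those of the table.

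GENCODE M21, on GRCm38, matched 44 of 44 identifiers and gave transcript lengths and 25-base words, counted on either strand. Fragment numbers are estimates, from the most frequent value of low FPKM times length in genes with 1 transcript over 2000 bases. Promoter sequence and motif positions are from RefSeq, GRCm38.p6, and were not joined to mm9 positions. The size rule was run on simulated data in which genes were unchanged or changed by at least 2-fold. That run does not cover the smaller differences reported here. Computations ran in Python 3.11.15 with scipy 1.17.1, pandas 2.3.3 and numpy 2.4.6, and plots in matplotlib 3.10.9. Alternatives were another pseudocount, minimum FPKM, threshold and scaling.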

Additional observations from a re-analysis of the deposited data

How the results depend on the processing

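The count of interferon response genes below 0 was 41 of 42 with a pseudocount of 0.1 or 5, after centring on the median and after scaling to the same FPKM sum. It was 34 of 35 at a minimum FPKM of 5 and 43 of 44 without a minimum or among genes the authors tested. Their median ratio ran from -0.37 to -0.25 over the alternatives. Genes at least 1.5-fold lower numbered 8 with a pseudocount of 0.1, 2 with a pseudocount of 5, and 0 at a 2-fold threshold. The effector median was -0.24 with a pseudocount of 5. Among the other induced genes, 0 were past the threshold with a pseudocount of 5, 1 at a minimum FPKM of 5 and 0 at 2-fold. A pseudocount acts by construction on low genes. Single ratios moved by over 1.5 times and over 0.1 in 2 genes with a pseudocount of 0.1 and in 9 with 5, and no ratio changed sign under these alternatives. Added after the data were seen, removal of genes that share at least 50% of their words with another gene left 38 genes below 0 and a median of -0.36. With the longest in place of the shortest coding transcript, the upper bound of the counting interval was 0.565 for Mx1 and 0.902 for Oas2, against 1.28 and 1.19, so whether their intervals include 1 depends on the transcript. No paired analysis was possible because GW3965 and DMSO have a single library apiece. Depth limits the interferon genes themselves and, with the shortest transcript, Mx1 and Oas2. The intervals of Isg20 and Oas3, both counted as below 0, include 1 with either transcript. With the longest they were 0.827 to 1.14 for Isg20 and 0.764 to 1.01 for Oas3. That of Gbp2 ran from 0.854 to 1 after rounding.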

Other observations

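Each gene named here was chosen with its value known. Gm4951, in which 6.32% of the 25-base words of Iigp1 occur, had 2.44 FPKM in GW3965 and 4.11 FPKM in DMSO (-0.57), the same direction as Iigp1. Trim30d, a tripartite motif gene, had 5.89 FPKM in GW3965 and 8.92 FPKM in DMSO (-0.53). Rnf213, a very large ubiquitin ligase, had 46.0 FPKM in GW3965 and 59.5 FPKM in DMSO (-0.37), and Ifi47, an immunity-related GTPase gene, had 22.2 FPKM in GW3965 and 29.5 FPKM in DMSO (-0.40). Of the 5 other induced genes above 0, Ifi30, a lysosomal thiol reductase, had 43.8 FPKM in GW3965 and 38.6 FPKM in DMSO (0.18), and Aim2, a DNA sensor, had 1.52 FPKM in GW3965 and 1.25 FPKM in DMSO (0.16). Lap3, an aminopeptidase, stood at 0.04, Zc3hav1, an antiviral zinc finger gene, at 0.02 and Nlrc5, a regulator of MHC class I genes, at 0.01.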
